A study of Homo sapiens with 15 samples.

Results

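Caspases, death receptors and their inhibitors are described here by 8 genes, chosen by gene name from the count tables of the osteosarcoma lines Saos2 and MG-63. TNFRSF10A, TNFRSF10B and FAS encode receptors, CASP8 and CASP9 initiator caspases, CFLAR and XIAP inhibitors, and CASP4 an inflammatory caspase. All 8 were found among the 58051 genes listed for Saos2 and the 57773 listed for MG-63, and all 8 passed the filter on low counts in both lines. The cells, labelled wild type in both lines, were kept for 24 h with didesmethylrocaglamide (DDR), rocaglamide (Roc) or vehicle, and their mRNA was sequenced. Saos2 cells received 7 nM DDR, 40 nM Roc or 0.04% DMSO, with 3 libraries per group. MG-63 cells received 5 nM DDR, 25 nM Roc or 0.04% DMSO, with 2 libraries per group, so that 15 libraries were analysed. Each concentration was labelled as the growth-inhibitory IC50, so concentrations differ both between the compounds and between the lines. DDR and Roc are rocaglates, plant compounds that clamp the RNA helicase eIF4A onto mRNA and thereby block translation initiation. DDR is Roc without the methyl groups on the amide nitrogen. Each line descends from 1 tumor, and DDR and Roc of a line were set against the same DMSO libraries.

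As background, death receptors sit on the cell surface and bind ligands of the TNF family. FAS binds FAS ligand, and the products of TNFRSF10A (DR4) and TNFRSF10B (DR5) bind TRAIL. A bound receptor gathers the adaptor FADD and procaspase-8, which cleaves itself and then the executioner caspases. CFLAR (c-FLIP) resembles caspase-8 without its protease activity and can occupy its place in that complex. Damage to mitochondria acts through the apoptosome, where APAF1 activates caspase-9, and XIAP binds and blocks caspase-9 and the executioners caspase-3 and caspase-7. Caspase-4 binds bacterial lipopolysaccharide in the cytosol and cleaves gasdermin D, which opens pores in the membrane.

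Counts over all genes summed to 28838167 to 39787425 per library in Saos2 and 24506297 to 42541127 in MG-63, and the lowest count of any of the 8 genes in any library was 49, for TNFRSF10A. Of 11 osteoblast markers, 10 averaged at least 1 CPM (counts scaled to 1000000 per library with TMM factors within a line) in each Saos2 group (BGLAP did not) and 5 in each MG-63 group, where SP7, ALPL, IBSP, BGLAP, SPP1 and DLX5 did not. The summed blood markers stayed at or below 0.241 CPM in Saos2 and 0.496 CPM in MG-63. Among the other marker lists, 4 neuronal genes summed to 24.3 to 25.8 CPM with DDR and 34.9 to 37 CPM with Roc in Saos2, against 17.2 to 19.7 CPM with DMSO. SYT1 averaged at least 1 CPM in each of these groups and SNAP25 with DDR and Roc. The 4 epithelial genes, of which EPCAM alone exceeded 1 CPM, summed to 15.7 to 19.7 CPM with DDR and 16.1 to 16.8 CPM with Roc in Saos2, against 17 to 23 CPM with DMSO. In MG-63, 3 endothelial genes summed to 0.386 to 0.758 CPM with DDR and 0.368 to 1.2 CPM with Roc, against 2.18 to 2.72 CPM with DMSO. The 4 osteoclast genes, of which TNFRSF11A alone reached 1 CPM, summed to less in every treated library, at 1.24 to 1.7 CPM with DDR and 1.19 to 1.31 CPM with Roc in Saos2, against 2.02 to 2.81 CPM with DMSO. In MG-63 they summed to 5.09 to 6.04 CPM with DDR and 4.93 to 6.54 CPM with Roc, against 6.99 to 8.33 CPM with DMSO. The part of these markers in the results below was not tested. By the chi-square per degree of freedom between counts of a pair of libraries, Saos2 DDR replicate 2 stood apart from the other DDR libraries (21.7 and 25.9, against 8.53 between those) and DMSO replicate 3 from the other Saos2 DMSO libraries (21.6 and 17.6, against 11.7). The Saos2 calls of CFLAR and XIAP held without either library, and that of TNFRSF10A was lost without DDR replicate 2. In bulk RNA, a lower share of expressing cells and less RNA per cell cannot be told apart.

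The clearest changes in Saos2 were rises of both inhibitors. XIAP reached 1.66-fold of its DMSO level with DDR and 2.04-fold with Roc, and CFLAR reached 1.55-fold and 1.75-fold, while in MG-63 neither passed the test with its fold minimum. In MG-63 the one gene of the 8 that passed was CASP4, which fell to 0.476 of its DMSO level with DDR and to 0.576 with Roc. TNFRSF10A fell with DDR in Saos2, to 0.679 of the DMSO level. CASP8, CASP9, FAS and TNFRSF10B were not called in any of the 4 comparisons. A gene was called when its adjusted p was at most 0.05 and its log2 change at least 0.5 in size, by edgeR's quasi-likelihood test with Benjamini-Hochberg adjustment over all genes tested in the line.

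By that rule 2 of the 8 genes rose and 1 fell in Saos2 cells given DDR, and 2 rose and 0 fell in those given Roc. Over all 17593 genes that could be tested in Saos2, the rises were 7.55% with DDR and 13.5% with Roc, and the falls 6.73% with DDR and 10.4% with Roc. Rises made up 56.5% of the Roc calls and 52.9% of the DDR calls in Saos2, and 44.4% of either when libraries were scaled by their totals. In MG-63, DDR and Roc each gave 0 rises and 1 fall among the 8, while of the 15303 genes tested DDR raised 9.01% and lowered 7.74%, and Roc raised 4.57% and lowered 2.53%. Rises made up 53.8% of the DDR calls in MG-63, and 44.9% with library totals. At an adjusted p of at most 0.05 with no fold minimum, 5 of the 8 genes passed with DDR in Saos2, 3 with Roc in Saos2, and 3 with each compound in MG-63. The shares of all genes past that threshold were 27.8% with DDR and 38.9% with Roc in Saos2, while in MG-63 they were 35.6% with DDR and 18.7% with Roc. The median log2 change of the 8 was −0.14 with DDR and −0.07 with Roc in Saos2, and −0.04 and −0.08 in MG-63, beside medians of −0.01, −0.02, −0.01 and 0.01 over all genes tested in those comparisons. The 8 genes thus did not shift in one direction, and the calls belong to 4 of them.

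**Figure D1:**
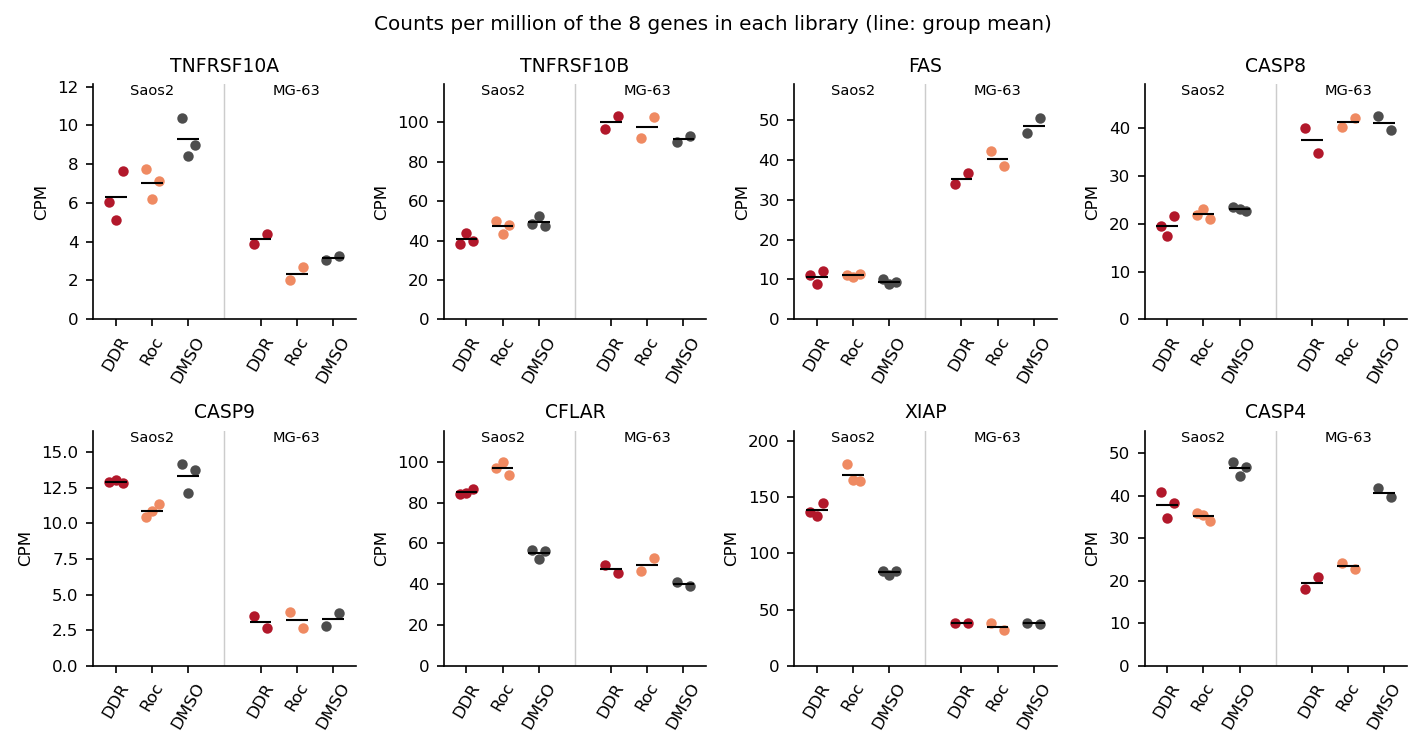
CPM (TMM scaled within a line) of the 8 genes in each library, by group, with Saos2 left and MG-63 right in each panel. Points are libraries (3 per group in Saos2, 2 in MG-63) and the short lines are group means. In Saos2 every DDR and Roc library lies above every DMSO library for CFLAR and XIAP, and in MG-63 every treated library lies below both DMSO libraries for CASP4.

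Among the receptors, TNFRSF10A (ENSG00000104689, chromosome 8, 23047965 to 23082615, minus strand, GRCh37) encodes DR4. It had 49 to 168 counts in MG-63 libraries and 149 to 362 in Saos2 libraries. In Saos2 it had 6.07, 5.13 and 7.66 CPM with DDR and 7.75, 6.22 and 7.13 CPM with Roc, against 10.4, 8.44 and 9.01 CPM with DMSO. All 6 treated libraries lay below the 3 DMSO libraries. The log2 change was −0.56 ± 0.17 with DDR (SE, n = 3 libraries per group, edgeR adjusted p = 0.018) and −0.40 ± 0.17 with Roc (adjusted p = 0.068, 95% interval −0.75 to −0.05), so the DDR change passed and the Roc change did not. The DDR call was lost without Saos2 DMSO replicate 1 (adjusted p = 0.071), without DDR replicate 1 (adjusted p = 0.061) and, at a log2 change of −0.445, without DDR replicate 2. In MG-63 the same gene had 3.86 and 4.39 CPM with DDR and 2.00 and 2.68 CPM with Roc, against 3.04 and 3.24 CPM with DMSO. The DDR libraries were thus the highest and the Roc libraries the lowest there, and neither change passed, at 0.39 ± 0.22 with DDR (adjusted p = 0.18) and −0.41 ± 0.24 after Roc (adjusted p = 0.26).

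TNFRSF10B (ENSG00000120889, chromosome 8, 22877646 to 22926544, minus strand) encodes DR5, the other TRAIL receptor that signals death. Saos2 cells had 38.5, 43.9 and 39.7 CPM of it with DDR and 50.1, 43.4 and 47.9 CPM with Roc, against 48.4, 52.6 and 47.4 CPM with DMSO. The DDR libraries lay below all DMSO libraries and the Roc libraries overlapped them. The log2 change with DDR was −0.28 ± 0.093, with an adjusted p of 0.027 but a size under the fold minimum, and that with Roc was −0.07 ± 0.092 (adjusted p = 0.60). MG-63 cells had 96.9 and 103 CPM with DDR and 92.3 and 103 CPM with Roc, against 89.8 and 93.3 CPM with DMSO, and neither change passed, at 0.13 ± 0.077 (adjusted p = 0.21) and 0.09 ± 0.077 (adjusted p = 0.46). TNFRSF10A and TNFRSF10B lie on the same chromosome and strand, in a cluster of TRAIL receptor genes. The decoy receptors TNFRSF10C and TNFRSF10D, which bind TRAIL without signalling death, had at most 12 and 141 counts in any Saos2 library and at most 8 and 1 in any MG-63 library.

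FAS (ENSG00000026103, chromosome 10, 90750414 to 90775542, plus strand) encodes the receptor of FAS ligand. In Saos2 it had 11.1, 8.82 and 12.1 CPM with DDR and 11.1, 10.6 and 11.3 CPM with Roc, against 10.2, 8.87 and 9.28 CPM with DMSO. The Roc libraries lay just above the DMSO libraries and the DDR libraries overlapped them, and neither change passed, at 0.18 ± 0.14 (adjusted p = 0.40) and 0.22 ± 0.14 (adjusted p = 0.24). In MG-63 it had 33.9 and 36.7 CPM with DDR and 42.2 and 38.5 CPM with Roc, against 46.7 and 50.6 CPM with DMSO, so that all 4 treated libraries lay below both DMSO libraries. Both log2 changes had an adjusted p of at most 0.05 and a size under the fold minimum, −0.46 ± 0.087 with DDR (n = 2 libraries per group, edgeR adjusted p = 1.9e-04) and −0.27 ± 0.087 with Roc (edgeR adjusted p = 0.030). Without MG-63 DMSO replicate 1 or DDR replicate 2 the DDR change reached the fold minimum, at −0.516 and −0.529. FAS shares 380 exon bases, 10.7% of its merged exons, with ACTA2 on the other strand, which encodes smooth muscle actin. ACTA2 fell in all 4 comparisons, by log2 changes of −0.54 ± 0.11 with DDR and −0.95 ± 0.11 with Roc in Saos2 and −1.06 ± 0.21 and −1.17 ± 0.22 in MG-63. Whether reads were counted by strand was not given in the sources used here. ACTA2 had 1245 to 3595 counts in Saos2 libraries, where FAS had 256 to 428, and 66 to 245 in MG-63 libraries, where FAS had 1031 to 2156. The part of ACTA2 in the FAS counts, and so in the FAS differences between the lines given below, was not tested. FAS also shares 917 exon bases, 25.7%, with a long noncoding RNA gene of the other strand that was not analysed here. Whether these include bases shared with ACTA2 was not tested.

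The ligands of these receptors were close to absent. FASLG had 0 counts in every library of both lines. For a single library taken alone, 0 counts allow up to 3 by counting error, and all libraries together allow less. TNF had at most 3 counts in Saos2 and 0 in MG-63. TNFSF10, which encodes TRAIL, had at most 14 counts in any Saos2 library and 4 in any MG-63 library. Those 3 ligand genes did not pass the filter on low counts in either line, and their changes were not tested.

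CASP8 (ENSG00000064012, chromosome 2, 202098166 to 202226559, plus strand), the initiator caspase that death receptors recruit, was not called in any comparison. In Saos2 it had 19.6, 17.5 and 21.6 CPM with DDR and 21.9, 23.2 and 21.0 CPM with Roc, against 23.5, 23.1 and 22.7 CPM with DMSO. The DDR libraries lay below all DMSO libraries, with a log2 change of −0.24 ± 0.11 (adjusted p = 0.12, 95% interval −0.47 to −0.01), and the Roc libraries overlapped them, at −0.07 ± 0.11 (adjusted p = 0.68, 95% interval −0.29 to 0.16). In MG-63 it had 40.2 and 34.8 CPM with DDR and 40.4 and 42.3 CPM with Roc, against 42.7 and 39.7 CPM with DMSO. Those groups overlapped, and the 95% intervals ran from −0.32 to 0.05 with DDR and from −0.18 to 0.19 with Roc. The related initiator gene CASP10 had 19 to 63 counts in MG-63 libraries and at most 15 in Saos2 libraries.

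CASP9 (ENSG00000132906, chromosome 1, 15817327 to 15853029, minus strand), the initiator caspase of the apoptosome, was not called in any comparison. It had 91 to 159 counts in MG-63 libraries and 304 to 553 in Saos2 libraries. Saos2 libraries had 12.9, 13.0 and 12.8 CPM with DDR and 10.5, 10.8 and 11.3 CPM with Roc, against 14.1, 12.1 and 13.8 CPM with DMSO. The 3 Roc libraries were the lowest, and their log2 change of −0.29 ± 0.12 missed the threshold (adjusted p = 0.069, 95% interval −0.55 to −0.03), while the DDR change was −0.05 ± 0.12 (adjusted p = 0.84). MG-63 libraries had 3.52 and 2.67 CPM with DDR and 3.80 and 2.66 CPM with Roc, against 2.80 and 3.73 CPM with DMSO. The MG-63 groups overlapped and the intervals were wide, −0.59 to 0.43 with DDR and −0.56 to 0.49 with Roc. A fall of the size of the fold minimum lay within both intervals, and a rise of that size just outside both.

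CFLAR (ENSG00000003402, chromosome 2, 201980877 to 202041410, plus strand) encodes c-FLIP, the inhibitor at the death receptor complex, and is a neighbor of CASP8 on the chromosome. In Saos2 it had 84.4, 84.7 and 86.9 CPM with DDR and 97.0, 99.7 and 93.5 CPM with Roc, against 57.0, 52.4 and 56.3 CPM with DMSO. All 6 treated libraries lay well above the DMSO libraries. The rise was 0.63 ± 0.076 with DDR (n = 3 libraries per group, edgeR adjusted p = 2.0e-06, 95% interval 0.47 to 0.79) and 0.81 ± 0.076 with Roc (edgeR adjusted p = 1.9e-08, 95% interval 0.65 to 0.97). In MG-63 it had 49.6 and 45.3 CPM with DDR and 46.4 and 52.8 CPM with Roc, against 40.9 and 39.3 CPM with DMSO. The 4 treated libraries were again the higher ones, but the changes stayed under the fold minimum, at 0.24 ± 0.087 with DDR (adjusted p = 0.031) and 0.31 ± 0.087 after Roc (adjusted p = 0.014).

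XIAP (ENSG00000101966, chromosome X, 122993562 to 123047822, plus strand) encodes the inhibitor of caspase-9, caspase-3 and caspase-7. In Saos2 it had 136, 133 and 145 CPM with DDR and 179, 165 and 164 CPM with Roc, against 84.1, 81.0 and 84.3 CPM with DMSO. The lowest treated library thus stood far above the highest DMSO library. The rise was 0.73 ± 0.073 with DDR (n = 3 libraries per group, edgeR adjusted p = 1.2e-07, 95% interval 0.58 to 0.89) and 1.03 ± 0.073 with Roc (edgeR adjusted p = 2.6e-10, 95% interval 0.88 to 1.18). In MG-63 it had 37.64 and 37.69 CPM with DDR and 37.7 and 32.0 CPM with Roc, against 38.3 and 36.9 CPM with DMSO. Both DDR libraries lay between the DMSO libraries, and the intervals were −0.19 to 0.19 with DDR (adjusted p = 0.99) and −0.31 to 0.08 after Roc (adjusted p = 0.43). BIRC8, a copy of part of XIAP elsewhere in the genome, had 0 counts in every library.

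CASP4 (ENSG00000196954, chromosome 11, 104813593 to 104840093, minus strand) encodes the caspase that senses lipopolysaccharide. In MG-63 it had 18.0 and 20.8 CPM with DDR and 24.2 and 22.7 CPM with Roc, against 41.9 and 39.6 CPM with DMSO. The 4 treated libraries lay far below both DMSO libraries. The log2 change was −1.07 ± 0.098 with DDR (n = 2 libraries per group, edgeR adjusted p = 1.5e-08, 95% interval −1.27 to −0.87) and −0.80 ± 0.099 with Roc (edgeR adjusted p = 4.5e-06). In Saos2 it had 40.9, 34.6 and 38.2 CPM with DDR and 36.0, 35.5 and 34.1 CPM with Roc, against 47.8, 44.7 and 46.8 CPM with DMSO. All 6 treated libraries were below the DMSO libraries there too, with changes under the fold minimum of −0.29 ± 0.092 with DDR (adjusted p = 0.021) and −0.40 ± 0.092 after Roc (adjusted p = 0.0014). Its neighbors and close relatives CASP1 and CASP5 had 48 to 117 and at most 1 counts in MG-63 libraries, and at most 6 and 1 in Saos2 libraries.

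**Figure D2:**
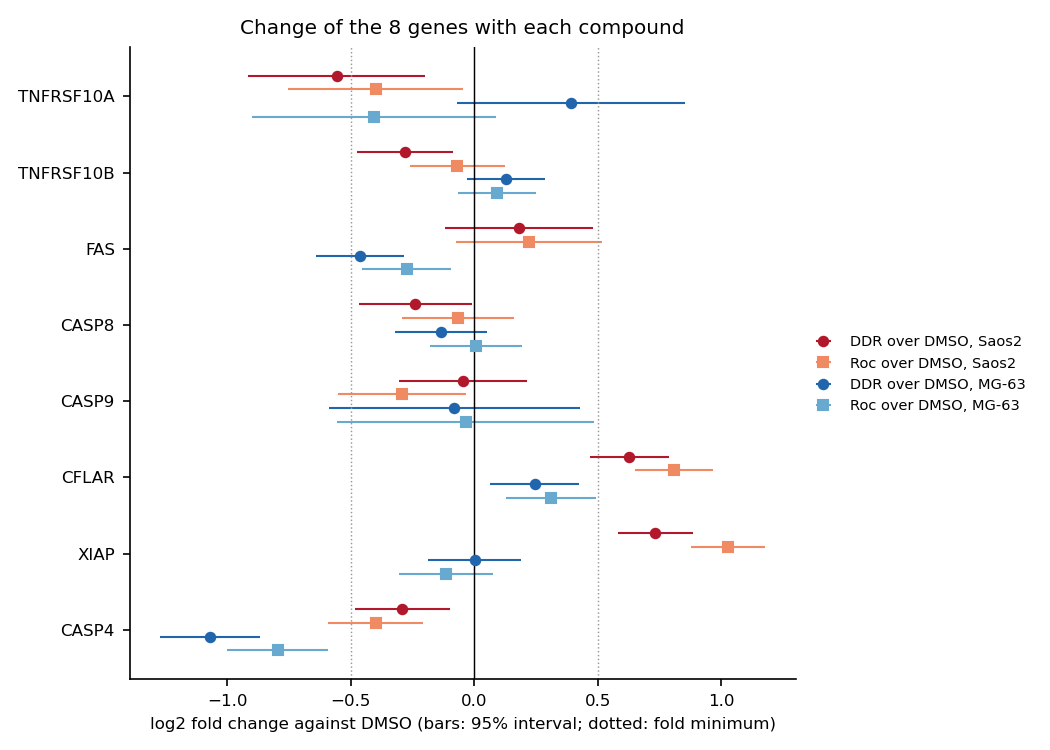
Log2 fold change against DMSO of the 8 genes with DDR and Roc in Saos2 and MG-63 (x axis, log2 units). Points are edgeR estimates, bars are 95% intervals and dotted lines mark the fold minimum of 0.5. The Saos2 intervals of CFLAR and XIAP and the MG-63 intervals of CASP4 lie farthest from 0.

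Apart from FAS, the exons that overlap other genes carry few counts or a small part of the gene. TNFRSF10B shares 377 exon bases, 7.52% of its merged exons, with RHOBTB2 on the other strand, which encodes an adaptor of a ubiquitin ligase. RHOBTB2 rose with Roc in Saos2 (0.56 ± 0.20, adjusted p = 0.028) and with DDR in MG-63 (0.52 ± 0.16, adjusted p = 0.013). TNFRSF10A shares 266 bases with TNFRSF10A-DT, which had at most 16 counts in any library of either line. CFLAR shares 777 bases with CFLAR-AS1 and 1488 with the pseudogene IMPDH1P10, at most 17 and 14 counts. CASP9 shares 101 bases with CELA2B, at most 1 count. CASP8 shares 343 exon bases, 4.74% of its merged exons, with a long noncoding RNA gene on the same strand. That gene was not among those listed for either line, so its counts are not known. The part of these neighbors in the counts of the 8 genes was not tested.

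The changes differed between the lines for several of the 8 genes, tested as the log2 change in Saos2 minus that in MG-63 in one edgeR fit of all 15 libraries. With DDR, 3 of the 8 were called higher and 1 lower, against 6.96% and 6.31% of 18842 genes tested. With Roc, 3 were called higher and 0 lower, against 8.37% and 4.63%. Positive differences made up 64.4% of all genes called for Roc, and 45.7% when libraries were scaled by their totals, which shifts the median of all genes by −0.12 in this comparison. For DDR they made up 52.4%, and 47.3% with library totals. Since the lines received different concentrations, line and concentration cannot be told apart here.

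XIAP had the firmest difference, at 0.77 ± 0.11 with DDR (adjusted p = 7.2e-05) and 1.19 ± 0.11 after Roc (adjusted p = 1.0e-07). It was called in all 15 fits that left out 1 library for each compound. CFLAR differed by 0.54 ± 0.12 with Roc (adjusted p = 0.0023) and by 0.42 ± 0.12 with DDR, which is under the fold minimum (adjusted p = 0.017). The Roc difference of CFLAR fell to 0.43 without MG-63 Roc replicate 1, and to 0.49 and 0.427 with DESeq2 size factors and library totals, each under the fold minimum. CASP4 differed by 0.81 ± 0.14 with DDR (adjusted p = 3.7e-04), a fall that was smaller in Saos2, and by 0.44 ± 0.14 with Roc (adjusted p = 0.034, under the fold minimum). The DDR difference of CASP4 was called in all 15 fits that left out 1 library.

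FAS differed by 0.68 ± 0.17 with DDR (adjusted p = 0.0068) and 0.54 ± 0.17 after Roc (adjusted p = 0.028) between the lines. Its changes in Saos2 had not passed the test, so the differences do not show a rise there. The DDR difference of FAS was not called without MG-63 DMSO replicate 2, at 0.605 (adjusted p = 0.057). The Roc difference of FAS was not called without MG-63 DMSO replicate 2 (0.467, adjusted p = 0.16), MG-63 Roc replicate 1 (0.58, adjusted p = 0.058) or MG-63 Roc replicate 2 (0.50, adjusted p = 0.14). It was also lost without Saos2 DMSO replicate 2 (0.499, adjusted p = 0.073) or Saos2 Roc replicate 3 (0.521, adjusted p = 0.061), and with DESeq2 size factors (0.484) and library totals (0.42). TNFRSF10A differed by −0.92 ± 0.29 with DDR (adjusted p = 0.028), with a 95% interval of −1.51 to −0.33, and by 0.05 ± 0.30 with Roc (adjusted p = 1). Its DDR difference was not called without MG-63 DMSO replicate 1 (adjusted p = 0.11) or 2 (adjusted p = 0.073), MG-63 DDR replicate 2 (adjusted p = 0.13), Saos2 DMSO replicate 1 (adjusted p = 0.066) or Saos2 DDR replicate 1 (adjusted p = 0.053), and it ranged from −1.089 to −0.791 over all 15 fits. TNFRSF10B differed by −0.38 ± 0.13 with DDR (adjusted p = 0.044), under the fold minimum. The intervals of CASP8, −0.37 to 0.24 with DDR and −0.33 to 0.28 with Roc, and of CASP9, −0.45 to 0.60 and −0.74 to 0.33, all included 0.

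**Figure D3:**
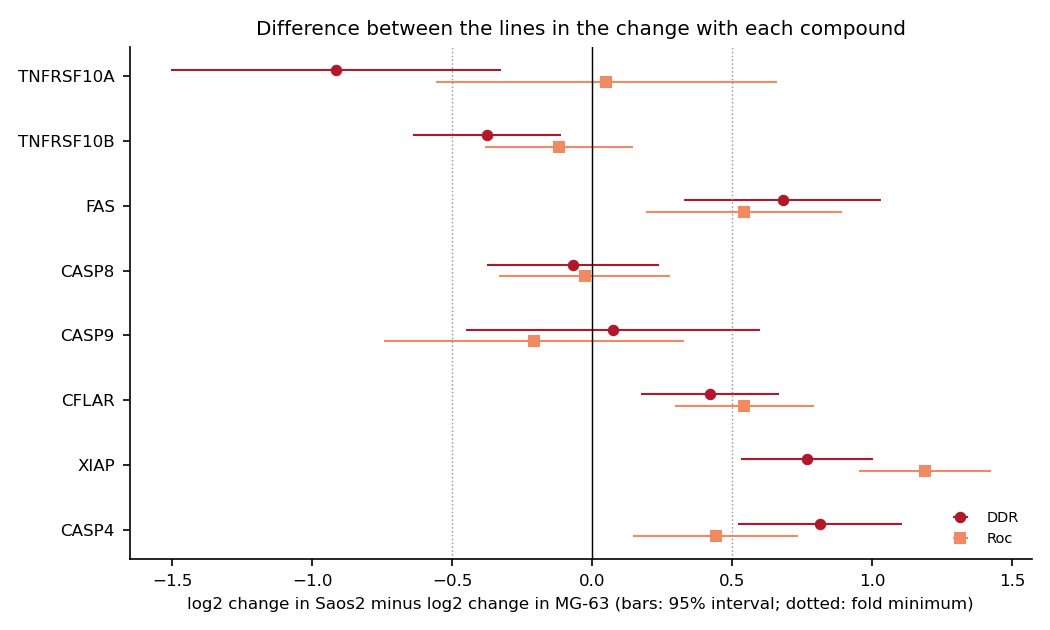
Log2 change in Saos2 minus log2 change in MG-63 for each of the 8 genes, with DDR (circles) and Roc (squares). Bars are 95% intervals of the interaction in one fit of 15 libraries and dotted lines mark the fold minimum of 0.5. XIAP lies right of the dotted line with both compounds, and TNFRSF10A with DDR lies left of 0 with a wide interval.

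Without treatment the lines already held different amounts of several of these transcripts, as of many other genes. With DMSO, 3 of the 8 genes were called higher and 3 lower in Saos2 than in MG-63, against 36.3% and 31.4% of 18842 genes tested. Those counts are near the shares over all genes, so they do not set the 8 genes apart. Genes higher in Saos2 made up 53.7% of all genes called, and 68% when libraries were scaled by their totals, which shifts the median of all genes by 0.48. The CPM here were scaled by TMM over all 15 libraries and so differ from those above. FAS showed the largest difference, with 9.02, 7.99 and 8.40 CPM in Saos2 and 56.7 and 62.4 CPM in MG-63, a log2 difference of −2.82 ± 0.12 (n = 3 and 2 libraries, edgeR adjusted p = 1.4e-16). TNFRSF10B had 42.9, 47.3 and 42.9 CPM in Saos2 and 109 and 115 CPM in MG-63 (−1.34 ± 0.089, adjusted p = 1.1e-12). CASP8 had 20.8, 20.8 and 20.5 CPM in Saos2 and 51.8 and 49.0 CPM in MG-63 (−1.28 ± 0.10, adjusted p = 3.9e-11). These 3 genes of the receptor route were thus lower in Saos2.

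The other TRAIL receptor went the other way, with 9.22, 7.60 and 8.15 CPM of TNFRSF10A in Saos2 and 3.70 and 3.99 CPM in MG-63 (1.11 ± 0.21, adjusted p = 3.6e-05). CASP9 had 12.5, 10.9 and 12.5 CPM in Saos2 and 3.40 and 4.60 CPM in MG-63 (1.58 ± 0.18, adjusted p = 3.4e-08), and XIAP had 74.6, 72.9 and 76.3 CPM in Saos2 and 46.6 and 45.6 CPM in MG-63 (0.70 ± 0.081, adjusted p = 3.7e-08). CFLAR stood at 50.5, 47.1 and 51.0 CPM in Saos2 and 49.6 and 48.4 CPM in MG-63, with a 95% interval of −0.16 to 0.19 for the difference (0.493 with library totals, under which the median of all genes shifted by 0.48). CASP4 had 42.4, 40.2 and 42.3 CPM in Saos2 and 50.9 and 48.8 CPM in MG-63, a difference under the fold minimum (−0.26 ± 0.098, adjusted p = 0.021) that turned to 0.219 with library totals. The 6 calls held under every alternative run for this comparison and in all 15 fits that left out 1 library. Line and any batch of preparation cannot be told apart in this comparison, and those fits do not bear on that.

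Levels of different genes were compared only per kb of merged exons, again with DMSO. In Saos2 the order of the means was TNFRSF10B (8.86 CPM per kb), XIAP (7.83), CASP4 (6.25), CASP8 (2.86), TNFRSF10A (2.84), FAS (2.38), CASP9 (2.27) and CFLAR (2.20). The libraries of CASP8 and TNFRSF10A overlapped, and so did those of FAS, CASP9 and CFLAR, so these neighbors did not differ beyond their spread. In MG-63 the order was TNFRSF10B (22.4 CPM per kb), FAS (16.7), CASP4 (7.48), CASP8 (6.97), XIAP (4.84), CFLAR (2.18), TNFRSF10A (1.31) and CASP9 (0.76), with no overlap between neighbors. The order depends on the length used. CASP4 came first in both lines, at 32.1 CPM per kb in Saos2 and 38.5 CPM per kb in MG-63, when the 1.3 kb of its canonical transcript replaced its 6.67 kb of merged exons, and FAS had no canonical transcript in the annotation used.

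**Figure D4:**
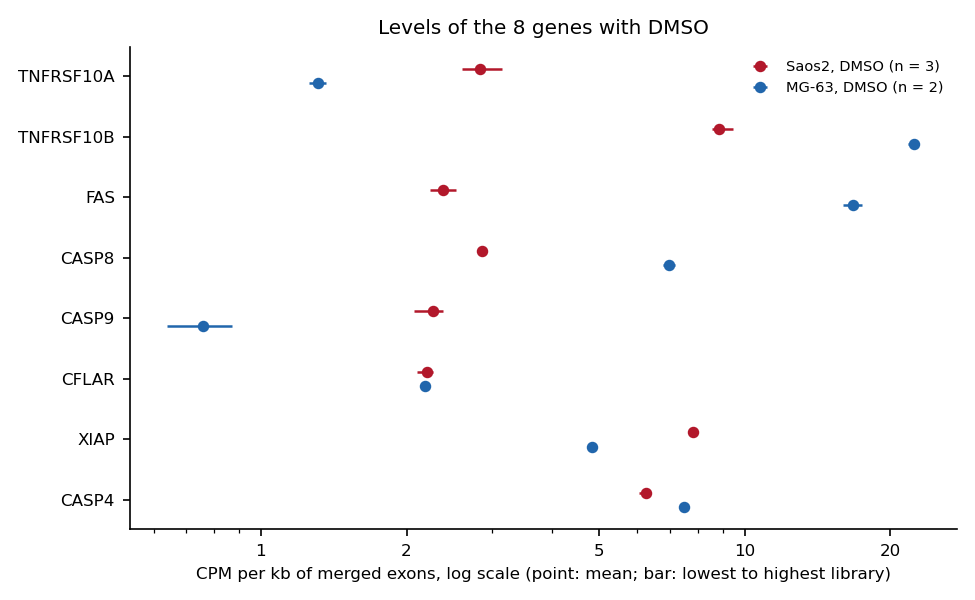
Level of the 8 genes with DMSO in CPM per kb of merged exons (x axis, log scale; TMM over 15 libraries), Saos2 above MG-63 for each gene. Points are means of 3 (Saos2) and 2 (MG-63) libraries and bars run from the lowest to the highest library. FAS, at 2.38 in Saos2 and 16.7 in MG-63, shows the widest gap, and CFLAR the narrowest.

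The genes whose pattern over the 15 libraries was most like that of each member were found by Pearson's r of log2 CPM, centred on each line's mean, among 10404 other protein-coding genes. The nearest gene was KDM3A for CFLAR and SUGT1 for XIAP, both with r = 0.98, CEP126 for CASP4 (0.96), PVR for TNFRSF10A (0.93) and GANAB for TNFRSF10B (0.93). For FAS it was LYSMD3 (0.90), for CASP8 PDCL (0.84) and for CASP9 FAM162A (0.81). These r are descriptions over libraries that share the treatment groups and their depth, each the highest of many.

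The wider pathway was followed in a list of 68 genes around the 8 members, from ligands and decoys to caspase substrates. In Saos2, where 44 could be tested, DDR gave 5 rises and 6 falls and Roc gave 11 rises and 7 falls. The shares over all genes there were 7.55% and 6.73% with DDR and 13.5% and 10.4% with Roc. In MG-63, where 43 could be tested, DDR gave 6 rises and 2 falls and Roc gave 3 rises and 1 fall, beside shares of 9.01% and 7.74% with DDR and 4.57% and 2.53% with Roc over all genes. Their median log2 changes were −0.04 and −0.13 in Saos2 and 0.08 and 0.03 in MG-63, near those of all genes given above. The genes named are the 3 largest rises and falls of a comparison among those averaging at least 1 CPM in the line.

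Of the 5 other inhibitors of apoptosis tested in Saos2, DDR raised 1 and lowered 1, while Roc raised 2 and lowered 1. In MG-63, 1 of 5 rose with DDR and 0 were called with Roc. BIRC2, which encodes the ubiquitin ligase cIAP1, had 129, 139 and 157 CPM with DDR and 184, 193 and 190 CPM with Roc in Saos2, against 67.8, 70.4 and 77.1 CPM with DMSO. All treated libraries lay above the DMSO libraries, with rises of 0.98 ± 0.082 (adjusted p = 1.4e-08) and 1.40 ± 0.083 (adjusted p = 2.0e-11). In MG-63 its changes were 0.09 ± 0.074 with DDR (adjusted p = 0.36) and 0.03 ± 0.075 after Roc (adjusted p = 0.83), and the difference between the lines was called with both compounds, at 0.92 ± 0.12 (adjusted p = 1.8e-05) and 1.41 ± 0.12 (adjusted p = 1.8e-08). BIRC3, which encodes cIAP2, was sparse, at 1.93, 1.41 and 2.06 CPM with Roc in Saos2 against 0.55, 0.20 and 0.55 CPM with DMSO (2.06 ± 0.47, adjusted p = 0.0013), and 3.78 and 4.73 CPM with DDR in MG-63 against 1.56 and 2.20 CPM with DMSO (1.17 ± 0.25, adjusted p = 7.5e-04). BIRC5, which encodes survivin, also needed for cell division, was the inhibitor that fell in Saos2 and was named after its values were seen. It had 128, 140 and 131 CPM with DDR and 108, 112 and 110 CPM with Roc there, against 193, 206 and 193 CPM with DMSO. Its log2 changes were −0.57 ± 0.071 (adjusted p = 2.8e-06) and −0.84 ± 0.071 (adjusted p = 3.7e-09) in Saos2, and in MG-63 they were under the fold minimum, at −0.39 ± 0.072 with DDR and −0.28 ± 0.072 with Roc. SEPTIN4, whose ARTS isoform antagonizes XIAP, fell in Saos2 to 3.81, 3.38 and 2.14 CPM with DDR and 2.65, 2.46 and 2.35 CPM with Roc, against 7.20, 6.17 and 6.45 CPM with DMSO. Its log2 changes were −1.08 ± 0.22 (adjusted p = 6.7e-04) and −1.41 ± 0.22 (adjusted p = 2.4e-05), and it did not pass the filter on low counts in MG-63.

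Other receptors moved in both directions. TNFRSF11B encodes osteoprotegerin, a secreted decoy that binds RANKL and TRAIL, and it fell in MG-63 to 158 and 173 CPM with DDR and 205 and 219 CPM with Roc, against 509 and 522 CPM with DMSO. The falls were −1.64 ± 0.075 (adjusted p = 2.6e-13) and −1.28 ± 0.075 (adjusted p = 4.2e-11). In Saos2 it was far lower, at 14.9, 13.3 and 10.6 CPM with Roc against 8.23, 8.72 and 9.98 CPM with DMSO, and was called higher there (0.52 ± 0.16, adjusted p = 0.014), but not with DDR (0.04 ± 0.16, adjusted p = 0.90). The Saos2 call was lost with library totals, with no filter and with limma-voom, and without DMSO replicate 1 or 2, DDR replicate 2 or Roc replicate 1 or 2 (0.378 to 0.617 over the 9 fits that left out 1 library). TNFRSF1A, the TNF receptor with a death domain, rose in MG-63 to a mean of 173 CPM with DDR and 152 CPM with Roc, against 97.2 CPM with DMSO (0.83 ± 0.079, adjusted p = 2.7e-08, and 0.64 ± 0.080, adjusted p = 4.7e-06). In Saos2 it was called with Roc (0.51 ± 0.083, adjusted p = 3.5e-05), just past the fold minimum, and not with DDR (0.17 ± 0.083, adjusted p = 0.13). That Roc call fell under the fold minimum with library totals, with no filter, and without DMSO replicate 2 or 3, DDR replicate 2 or Roc replicate 1 or 3 (0.428 to 0.518 over 9 such fits). TNFRSF21, death receptor 6, fell in Saos2 to a mean of 216 CPM with DDR and 143 CPM with Roc, against 326 CPM with DMSO (−0.60 ± 0.077, adjusted p = 4.5e-06, and −1.19 ± 0.078, adjusted p = 8.2e-11).

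Adaptors and substrates also moved. PEA15, a death effector domain protein that binds FADD and caspase-8, averaged 175 CPM with DDR and 241 CPM with Roc in Saos2, against 115 CPM with DMSO (0.60 ± 0.080, adjusted p = 6.9e-06, and 1.06 ± 0.080, adjusted p = 7.0e-10). It also rose with DDR in MG-63 (0.56 ± 0.079, adjusted p = 6.9e-06), a call lost at 0.457 without MG-63 DDR replicate 2. FAIM, an inhibitor of FAS signalling, averaged 41.9 CPM with DDR and 48.2 CPM with Roc in Saos2, against 24.2 CPM with DMSO (0.79 ± 0.096, adjusted p = 1.9e-06, and 0.99 ± 0.096, adjusted p = 2.8e-08). ROCK1, a kinase that caspase-3 activates by cleavage, averaged 248 and 284 CPM with DDR and Roc in Saos2, against 156 CPM with DMSO (0.66 ± 0.096, adjusted p = 1.8e-05, and 0.86 ± 0.096, adjusted p = 2.4e-07). TRAF2, an adaptor of TNF receptors, fell with DDR in Saos2 (−0.71 ± 0.21, adjusted p = 0.013). That call was lost without Saos2 DDR replicate 1 (adjusted p = 0.073) or 3 (adjusted p = 0.074).

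Around caspase-4, GSDMD, which encodes gasdermin D, rose with both compounds in MG-63 and fell with DDR in Saos2. It averaged 13.6 CPM with DDR and 13.5 CPM with Roc in MG-63, against 9.07 CPM with DMSO (0.59 ± 0.13, adjusted p = 7.3e-04, and 0.58 ± 0.13, adjusted p = 0.0025). In Saos2 it fell with DDR (17.9 CPM, against 26.6 CPM with DMSO, −0.57 ± 0.15, adjusted p = 0.0076), a call lost at −0.42 without Saos2 DMSO replicate 1 and at −0.41 without Saos2 DDR replicate 3. Roc gave −0.21 ± 0.15 in Saos2, which did not pass (adjusted p = 0.29). The difference between the lines was −1.12 ± 0.24 with DDR (adjusted p = 0.0021) and −0.74 ± 0.24 for Roc (adjusted p = 0.033). NLRP1, an inflammasome sensor, fell in Saos2 to 12.3, 10.2 and 9.93 CPM with DDR and 6.75, 9.55 and 9.22 CPM with Roc, against 51.1, 43.3 and 37.5 CPM with DMSO. Those were the largest falls of the list there, −2.02 ± 0.14 (adjusted p = 1.9e-09) and −2.36 ± 0.15 (adjusted p = 3.7e-11). CARD8, another sensor of that kind, fell with DDR in MG-63 (26.4 CPM, against 40.7 CPM with DMSO, −0.62 ± 0.10, adjusted p = 3.7e-05).

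**Figure D5:**
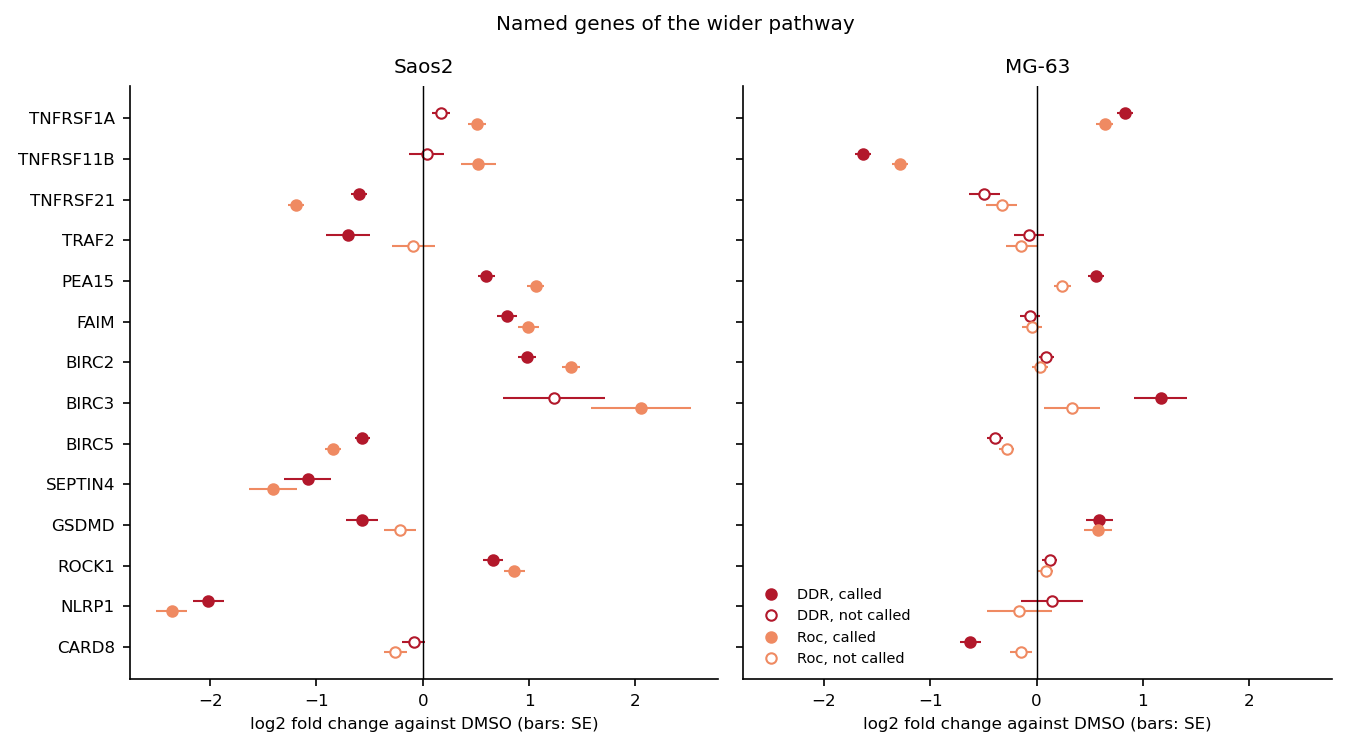
Log2 fold change against DMSO (x axis) of the named genes of the wider pathway in Saos2 (left) and MG-63 (right), with DDR and Roc. Bars are standard errors, filled points were called and open points were not, and SEPTIN4 has no MG-63 point because it was not tested there. BIRC2 and NLRP1 move far from 0 in Saos2 and TNFRSF11B in MG-63.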

How the data were processed

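Each gene count was made by the authors from TruSeq stranded mRNA libraries and deposited unnormalized. Per the submitters' processing notes and methods, Bowtie2 (2.5.1), STAR (2.7.3a), the build GRCh37 and HTSeq were used. The annotation release and the strand setting were not given in the sources used here. Of the per-sample columns, 55 (normalized counts and FPKM, and copies in the authors' test tables) were not used. The test tables' fold changes and p-values were not used either.

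Counts were matched by Ensembl ID (52684 in both tables). The filterByExpr filter, TMM scaling and glmQLFit, with the 3 groups of a line together, came from edgeR 4.0.16 (R 4.3.3). All 15 libraries, as 6 groups, gave differences between the lines and DMSO levels, over 18842 genes. SE is the change over the square root of F. Exons come from GENCODE v44lift37 on GRCh37. For the pattern likeness, 0.5 was added to CPM. The scripts were tested on simulated data.

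The members, the 68 pathway genes and the naming rule (the 8 members, the 3 largest called rises and falls per comparison at 1 CPM or more, each member's nearest gene, and overlapping genes) were chosen with earlier results of these data known. By their labels the libraries are biological replicates, with 1 from MG-63 and Roc given as a replicate only, so each p-value measures the spread between cultures of a line. No replicate pair agreed within sampling noise. Alternatives used DESeq2 1.42.0, limma 3.58.1 (voom), other scalings, no filter, no fold minimum, a fit of 2 groups, a replicate block and leaving out each library in turn. Depth was 24506297 to 42541127 counts per library.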

Additional observations from a re-analysis of the deposited data

Results flagged for a closer look

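The changes of 5 genes differed between the lines by a test of the difference itself, the log2 change in Saos2 minus that in MG-63. With DDR these were 0.81 for CASP4, 0.68 for FAS, −0.92 for TNFRSF10A and 0.77 for XIAP. With Roc they were 0.54 for CFLAR, 0.54 for FAS and 1.19 for XIAP. The calls of XIAP with both compounds and of CASP4 with DDR held under every alternative run. Each of the others lost its call in some fit, as given above. The lines differed in concentration and in number of libraries as well, which cannot be told apart from the line. No group had 4 or more libraries, so the values of single libraries were not tested for lying apart from their group.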

How the results depend on the processing

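Of 416 values of the 8 genes under alternatives other than leaving out a library, 389 kept their direction and their side of the thresholds, 6 lost the call, 12 gained it and 9 changed sign. Of 600 with 1 library left out, the numbers were 556, 15, 2 and 27. Of those 12 gains, all but FAS with DDR in MG-63 (library totals) came from dropping the fold minimum, which can only add calls. Of 483 values of the named pathway genes, 463 kept direction and call and 20 lost the call, mainly the Saos2 Roc calls of TNFRSF11B and TNFRSF1A. The calls of XIAP and CFLAR in Saos2 and of CASP4 in MG-63 held under every alternative run, at log2 changes of 0.687 to 1.039, 0.58 to 0.825 and −1.185 to −0.746.

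With no fold minimum, the counts called in MG-63 were 3 members, 18 pathway genes and 5448 genes in all with DDR, and 3, 10 and 2863 with Roc. In Saos2 they were 5, 21 and 4883 with DDR, and 6846 genes in all with Roc. With library totals 2 members were called with DDR in MG-63. For the difference between the lines with Roc, 1 member (XIAP) was called with DESeq2 size factors, with library totals and with the DESeq2 Wald test.

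None of the values that changed sign was called. Apart from the fits that left out a library, given below, all were near 0 except the DMSO difference of CASP4. That was −0.26 with an adjusted p of 0.021 and turned to 0.219 (adjusted p = 0.049) with library totals. With DESeq2 size factors the changed values were −0.003 for CASP8 with Roc in MG-63 and −3.4e-04 for the TNFRSF10A difference with Roc. With the DESeq2 Wald test they were −0.003 and −6.5e-04. With library totals they were −0.014 and −0.068 for the same results, and −0.045 for XIAP with DDR in MG-63. The fit of 2 groups alone gave −0.014 for CASP8 with Roc in MG-63. The causes were not tested.

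Leaving out 1 library, the members called ranged from 1 to 2 with DDR in MG-63, from 2 to 4 for the difference with DDR and from 1 to 3 for that with Roc. In MG-63 the ranges were −0.298 to 0.154 for CASP9 and −0.018 to 0.031 for XIAP with DDR, and −0.040 to 0.058 for CASP8, −0.314 to 0.218 for CASP9 and −0.247 to 0.005 for XIAP with Roc. The difference between the lines ranged from −0.157 to 0.024 for CASP8 and −0.170 to 0.273 for CASP9 with DDR, and from −0.084 to 0.032 for CASP8, −0.450 to 0.031 for CASP9 and −0.153 to 0.320 for TNFRSF10A with Roc. The DMSO difference of CFLAR ranged from −0.020 to 0.050.

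Replicate numbers paired the samples weakly if at all. Deviations of libraries with the same number correlated at −0.01 to 0.02 within MG-63 and at 0.00 to 0.14 within Saos2. Those of libraries with different numbers correlated at −0.11 to 0.03 within Saos2. A replicate block left 1 member called with each compound in MG-63, and 3 with DDR and 2 with Roc in Saos2, and it changed no call of the 8 genes. In MG-63, TNFRSF10A and CASP9 had the widest intervals of the 8 genes.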
